A study of Homo sapiens with 102 samples.

Results

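YM115 on its own was tested in K562, an established cell line from chronic myeloid leukaemia with the BCR-ABL fusion. The libraries were chosen by their titles: 12 of the 102 libraries of the series paired YM115 with the solvent DMSO, and 6 held DMSO from both drug sources. All 18 passed a minimum of 1000 detected genes. The study generated drug pairs in droplets, each drug marked by a fragment of a DNA barcode, and joined both fragments to prime reverse transcription of poly-A RNA after 12 h of incubation. In its small layout the same drugs were loaded on both injection sources, and the layout was run in a dT screen and in a Bio screen with the barcode fragments swapped between the sources.

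The compound is spelled YM115 in the labels and YM155 in the study. In each screen there were 3 runs, described by the study as independent experiments, and each run gave 1 DMSO_DMSO library, 1 library with YM115 listed first (YM115_DMSO) and 1 with YM115 listed second (DMSO_YM115). The labels do not say which listed position was which injection source. A library pools many single-cell droplets of 1 condition, so that fewer cells and less RNA per cell cannot be told apart. The p-values below measure the spread between these runs and libraries of 1 cell line.

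YM155 is known as a suppressant of survivin. Survivin, the product of BIRC5, is an inhibitor-of-apoptosis family protein and a member of the chromosomal passenger complex that guides chromosome segregation. K562 cells have erythroid features and make embryonic and fetal globins. Metallothioneins are small cysteine-rich proteins that bind zinc and copper, and their genes are switched on by the zinc-sensing factor MTF1 through metal response elements in their promoters.

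BIRC5 itself was too sparse to test. It had 11 counts in 4 of the 12 YM115 libraries and 0 counts in the 6 solvent libraries, where 3 counts would have stood for 3.24 CPM (counts scaled to a common library total), and no fold is given. A change in BIRC5 mRNA was thus not detectable at this depth.

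Of 1386 genes counted in 9 or more of the 18 libraries, 4 had an adjusted p under 0.05, or 0.289%. Adjusted p here is from the quasi-likelihood test of edgeR after Benjamini-Hochberg correction, with the run of each screen as a block. MT1X, a metallothionein, and HBG2, the fetal gamma-globin chain, were higher with YM115. HMGA1, an architectural chromatin protein that binds AT-rich DNA, and its processed pseudogene HMGA1P8 were lower. At an unadjusted p under 0.05 there were 105 genes (7.58%), 81 of them higher (5.84%) and 24 lower (1.73%).

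Beside these calls the whole table leaned upwards. The median log2 fold change of the 1386 genes, chosen by a filter that favours this direction, was 0.51. That of the 142 genes counted in all 18 libraries was 0.12, and -0.0008 when only these 142 genes were fitted. With DESeq2 size factors in place of TMM scaling the median over all genes moved to 0.35, and the calls were 0 higher and 2 lower in place of 2 and 2, the lower ones being HMGA1 and HMGA1P8. In no alternative did any of the 4 genes change direction. Group medians are therefore given below over the members counted in all 18 libraries.

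Depth was unequal between the groups. Total counts were 81806 to 198316 in the solvent libraries and 134311 to 480075 in the YM115 libraries, and the mean of log2 total counts was 0.74 higher with YM115 (two-sided exact permutation test within runs, p = 0.0178, adjusted over 12 tests p = 0.0889). In Bio the means were 114694 counts in solvent, 224121 with YM115 listed first and 200320 with YM115 listed second. In dT the excess was large for YM115 listed first, with 425065 ± 48133 counts (SD, n = 3) against 184353 ± 12460 in solvent, and small for YM115 listed second, with 185651 ± 36975. With log2 total counts as a covariate, adjusted p was 0.73 for MT1X, HBG2 and HMGA1 and 0.855 for HMGA1P8, while their log2 fold changes were 1.02, 0.62, -1.27 and -3.87. After every library was thinned to the depth of the shallowest, MT1X and HBG2 had an adjusted p of 0.0313 and HMGA1 of 0.0159, and HMGA1P8 was no longer tested. The part of depth in the results was not tested beyond these fits.

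**Figure D1:**
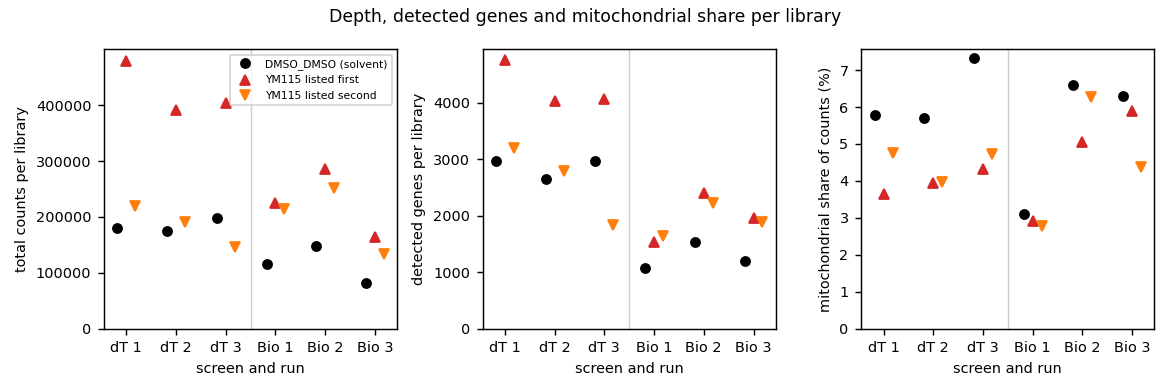
Total counts, detected genes and the mitochondrial share of counts (%) in each of the 18 libraries, by screen and run, with black circles for DMSO_DMSO and red and orange triangles for YM115 listed first and second. In dT the libraries with YM115 listed first are the deepest at 390691 counts or more, and the mitochondrial share is highest in the solvent library of all 6 runs.

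MT1X (ENSG00000187193) lies on chromosome 16 at 56682424 to 56684196 on the plus strand (GRCh38, GENCODE release 29), in the metallothionein cluster. Its levels are given as CPM on TMM-scaled library sizes. In dT the 3 solvent libraries had 3276, 1509.6 and 2559 CPM, and the 6 YM115 libraries ran from 3961 over a median of 6318 to 7936 CPM. In Bio the solvent libraries had 5482, 6887 and 15016 CPM and the YM115 libraries ran from 12614 over 19532 to 24413 CPM. The groups did not overlap in dT, where 2.16% of the 1386 genes lay wholly above solvent, and in Bio 1 solvent library, that of run 3, lay within the YM115 range.

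All 12 YM115 libraries had more MT1X than the solvent library of their run. Both YM115 libraries of a run are set against the same solvent library, so counts out of 12, here and below, are not independent. The log2 fold change was 1.20 ± 0.22 (SE; a 2.29-fold difference, adjusted p = 0.0242) over both screens, 1.33 ± 0.32 in dT and 1.14 ± 0.29 in Bio, and adjusted p was 0.383 and 0.226 in the single screens. Leaving out a whole run kept the log2 fold change between 0.99 and 1.39. Adjusted p was then 0.163 without Bio run 1, 0.0711 without Bio run 2, 0.257 without dT run 2 and 0.115 without dT run 3, and stayed under 0.05 without Bio run 3 (0.0279) or dT run 1 (0.0278). MT1XP1, a pseudogene copy of MT1X on chromosome 1, also had counts in all 18 libraries. It was above its run's solvent in 10 of 12 YM115 libraries and did not pass the test (0.61 ± 0.83). Of the 162 windows of 25 bases in the MT1XP1 transcript, 41.4% occur in MT1X transcripts, so some reads could be assigned to either.

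**Figure D2:**
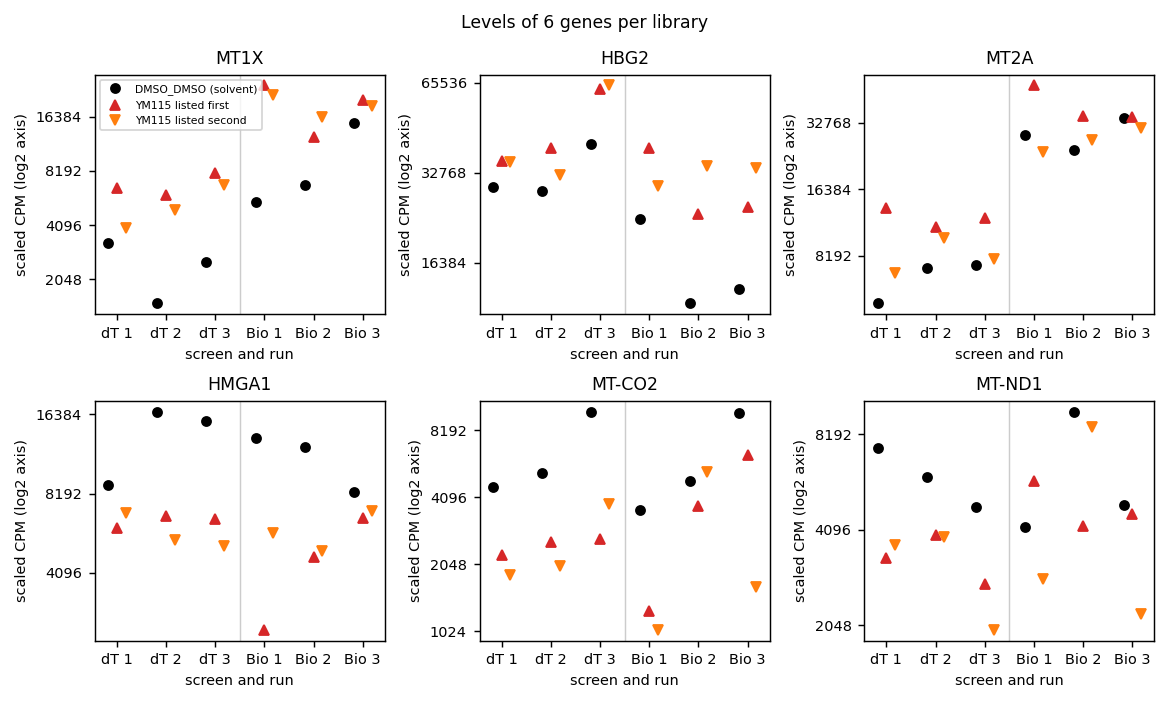
Scaled CPM on a log2 axis of MT1X, HBG2, MT2A, HMGA1, MT-CO2 and MT-ND1 in each of the 18 libraries by screen and run, with black circles for solvent and triangles for YM115 listed first (red) and second (orange). Both triangles lie above the circle in all 6 runs for MT1X and HBG2 and below it in all 6 for HMGA1; for MT-CO2 and MT-ND1 this holds for 11 of 12.

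Of the other metallothioneins none passed. Of 13 metallothioneins in the table, 7 were tested, 1 passed and 4 had an unadjusted p under 0.05, all higher (MT1X, MT2A, MT1E and MT1B), where 5.84% of all genes tested did. MT1E and MT1B reached the minimum of 9 libraries through the YM115 libraries alone, so the filter had set their direction, and this count is no support for the group. All 4 members counted in every library, MT1X among them, had a positive log2 fold change. Their median was 0.34, against 0.12 for all such genes, of which 90 of 142 were positive. The list's summed level includes MT1X and is thus no separate support for the group. In dT the sum was 9356 to 10737 CPM in solvent and 12124 to 22294 CPM with YM115, so that the groups did not overlap. In Bio it was 33534 to 53990 and 49333 to 85468 CPM, and over both screens it was above the run's solvent in 11 of 12 libraries.

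MT2A, a widely expressed metallothionein, had 4977, 7178 and 7413 CPM in dT solvent and 6798 to 13439 CPM with YM115, with a median of 10407. In Bio its solvent values of 28730.1, 24608 and 34556 CPM lay inside the YM115 range of 24057 to 48382 CPM. Its log2 fold change was 0.39 ± 0.17 (adjusted p = 0.567). MT1E and MT1B had counts in 2 of 6 solvent libraries each and in 12 and 11 of the 12 YM115 libraries. In Bio run 3 the solvent library had 299.5 CPM of MT1E, below both YM115 libraries of the run, and 898.4 CPM of MT1B, above both (667.5 and 53.4 CPM). Their fitted differences of 4.47 ± 1.98 and 5.14 ± 2.21 depend on the small number added to zero counts, and adjusted p was 0.594 and 0.573. MT1G had 0.28 ± 0.44. MT1H had 103.9 to 1098.4 CPM in dT solvent and 26.0 to 928.0 CPM with YM115. In Bio it had 128.3 to 3304.4 CPM in solvent and 1001.8 to 2789.8 CPM with YM115, so that its groups overlapped in both screens.

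The promoters of MT1X and MT2A are shown because MT1X had the larger of the increases that passed over both screens and MT2A is its better-known neighbour. Each line gives the 250 bases before the RefSeq start on the plus strand of chromosome 16 (GRCh38.p14), chr16:56682220-56682469 for MT1X and chr16:56608334-56608583 for MT2A, and capitals mark the metal response element cores TGCACNC and TGCGCNC on either strand.
MT1X: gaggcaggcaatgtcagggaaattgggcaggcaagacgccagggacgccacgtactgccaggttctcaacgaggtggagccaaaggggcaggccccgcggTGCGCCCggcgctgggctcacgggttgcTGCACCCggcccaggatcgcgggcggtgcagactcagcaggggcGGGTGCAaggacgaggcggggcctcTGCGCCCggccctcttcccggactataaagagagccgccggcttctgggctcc
MT2A: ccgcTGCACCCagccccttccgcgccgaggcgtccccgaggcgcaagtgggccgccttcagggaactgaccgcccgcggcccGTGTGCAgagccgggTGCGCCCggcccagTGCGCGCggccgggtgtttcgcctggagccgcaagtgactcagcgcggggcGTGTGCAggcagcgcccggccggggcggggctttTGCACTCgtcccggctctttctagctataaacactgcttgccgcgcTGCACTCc
MT1X held 4 such cores, the farthest starting 150 bases and the nearest 53 bases before the start, and MT2A held 7, between 246 and 8 bases before it. No cores overlapped. MT1H held 8 and MT1B 3. Of 27305 promoter windows of the same length, 24.7% held at least 1 core and 0.366% at least 4. A match describes letters in this window and not a bound site.

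HBG2 (ENSG00000196565; chromosome 11, 5253190 to 5505605, minus strand) had 29402, 28582 and 40921 CPM in dT solvent and 32262 over 37715 to 64133 CPM with YM115. In Bio its solvent libraries had 22931, 12012 and 13444 CPM, and the YM115 libraries 23909 over 31772 to 39592 CPM. The groups overlapped in dT and not in Bio, where 1.66% of the genes tested lay wholly above solvent. All 12 YM115 libraries were above their run's solvent. The log2 fold change was 0.66 ± 0.13, or 1.58-fold (adjusted p = 0.0242). It was 0.41 ± 0.07 in dT (adjusted p = 0.177) and 1.02 ± 0.17 in Bio, and in Bio alone it passed (adjusted p = 0.0235). The difference between the screens, 0.63 ± 0.20, did not pass (adjusted p = 0.544).

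The HBG2 call over both screens was lost without 4 of the 6 runs. Adjusted p was 0.0256 without dT run 1 and 0.036 without dT run 2, but 0.118 without dT run 3 and 0.0745, 0.0711 and 0.0985 without Bio runs 1, 2 and 3, with log2 fold changes between 0.54 and 0.72. Without the run as a block, adjusted p was 0.217, while the log2 fold change stayed at 0.66. HBG1, the near-identical second gamma-globin gene, had 8 counts in 1 solvent library and 0 in the other 17, so that the table holds nearly all gamma-globin counts under HBG2. Its annotated interval also overlaps that of HBE1, which had 153 counts in all 18 libraries together.

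Among the other globins, HBD, the delta chain of a minor adult haemoglobin, was counted in 8 of 12 YM115 libraries with 1349 counts in all, up to 318 in a library. It had 0 counts in the 6 solvent libraries. Pooled over libraries this was at least 139-fold against the level that 3 counts would give in solvent, but HBD was counted in too few libraries to be tested. HBD was singled out after its values were seen, as were HBG1, MT1XP1, HMGA1P3, PRRG3 and FTLP3 in this account. All 6 dT libraries with YM115 had HBD counts, and 2 of 6 in Bio. HBZ, the embryonic zeta chain, had a log2 fold change of 0.57 ± 1.06.

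Of 12 erythroid markers of K562, 5 were tested and only HBG2 passed. Their summed level was above the run's solvent in all 12 YM115 libraries, and HBG2 made up most of it. Of 18 markers of other blood and tissue cells in the table, 7 were at 0 in all 18 libraries and 1 was tested, with summed levels of 5.7 to 552.2 CPM in solvent and 55.4 to 2229 CPM with YM115. Their part in the results was not tested. FTL and FTH1, the light and heavy chains of the iron store ferritin, had log2 fold changes of -0.45 ± 0.22 (adjusted p = 0.626) and -0.72 ± 0.83. FTL was below its run's solvent in 11 of 12 YM115 libraries, with -0.74 ± 0.21 in dT and -0.04 ± 0.39 in Bio.

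HMGA1 (ENSG00000137309; chromosome 6, 34236873 to 34246231, plus strand) had 8807, 16776 and 15412 CPM in dT solvent and 5166 over 6298 to 6929 CPM with YM115. In Bio the solvent libraries had 13301, 12318 and 8310.2 CPM and the YM115 libraries 2488 over 5391 to 7014 CPM. The groups did not overlap in either screen, which was so in this direction for 2.60% of the 1386 genes in dT and for 0.866% in Bio. The log2 fold change was -1.16 ± 0.23 (adjusted p = 0.0242), a level of 0.447 times solvent, with -1.12 ± 0.21 in dT and -1.10 ± 0.43 in Bio. The single screens did not pass (adjusted p = 0.177 and 0.624). Without single runs the values were -1.33 to -1.09, and adjusted p was 0.0539 and 0.138 without Bio runs 1 and 2, 0.194 and 0.169 without dT runs 2 and 3, and 0.0279 and 0.0256 without Bio run 3 and dT run 1.

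HMGA1 has processed pseudogenes on other chromosomes, of which HMGA1P8 alone passed. HMGA1P8 (ENSG00000233155; chromosome 2, 74418122 to 74418442, minus strand) had 6, 13 and 10 counts in dT solvent and 0 to 3 with YM115, and 16, 3 and 4 counts in Bio solvent and 0 to 2 with YM115. It had a log2 fold change of -3.84 ± 0.74 (adjusted p = 0.0242). Leaving out a run gave -4.18 to -3.62 and an adjusted p of 0.0278 without dT run 1, and of 0.0639 to 0.149 without any other run. HMGA1P2 had 3, 3 and 1 counts in Bio solvent, 8, 17 and 3 in dT solvent and 0 to 2 with YM115 (-3.08 ± 0.78, adjusted p = 0.242). HMGA1P3 was counted in 5 of 6 solvent and 2 of 12 YM115 libraries. The HMGA1P8 transcript shares a run of 73 identical bases with HMGA1, and 31.0% of its windows of 25 bases occur in HMGA1 transcripts, so that part of these counts cannot be told apart from HMGA1 reads.

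Across the 1386 genes, 6 were above the run's solvent in all 12 YM115 libraries (0.433%) and 4 were below it in all 12 (0.289%). Among the 142 genes counted in all libraries the shares were 2.11% and 1.41%. The 6 were MT1X, HBG2, H1-4, CYBA, PRRG3 and 1 gene without a symbol (ENSG00000232035), and the 4 were HMGA1, HMGA1P8, HMGA1P2 and FTLP3. PRRG3, a vitamin K-dependent transmembrane protein, had 15 to 30 counts in dT solvent and 31 to 168 with YM115, and 2 to 16 against 25 to 57 in Bio. Its log2 fold change of 1.32 ± 1.04 did not pass (adjusted p = 0.825), though it passed in 1 of 19 alternative fits. FTLP3, a pseudogene of FTL, had -1.40 ± 0.72 (adjusted p = 0.639) and passed in 1 of 19 alternative fits. Of the 504 windows of 25 bases in the FTLP3 transcript, 57.9% occur in FTL transcripts, so some reads could be assigned to either. HMGA1P8 and HMGA1P2 likewise share stretches with HMGA1, so the 4 lower genes are not 4 separate observations.

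Further genes came next in the order of p, had one sign in both screens and did not pass. On the higher side these were USP37, a deubiquitinase (3.55 ± 1.03), CWC15, a spliceosome component (7.88 ± 2.35) and SENP7, a SUMO protease (3.67 ± 1.10), with an adjusted p of 0.406 for each. USP37, CWC15 and SENP7 had counts in 1 of 6 solvent libraries each and in 9, 11 and 10 of 12 YM115 libraries. These genes met the minimum of 9 libraries through the YM115 libraries alone, so the filter had set their direction.

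On the lower side stood MT-CO2, NUP214 and PPDPF. MT-CO2, a mitochondrially encoded subunit of cytochrome c oxidase, had 4560.0, 5286 and 9917 CPM in dT solvent and 1822 over 2410.0 to 3807 with YM115, with no overlap, and 3571, 4837 and 9829 against 1039 to 6318 CPM in Bio. Its log2 fold change was -1.24 ± 0.33 (adjusted p = 0.297). PPDPF, a small protein named for its role in exocrine pancreas differentiation, had 8159.8, 5815 and 10327 CPM in dT solvent and 1294 to 3327 with YM115, again with no overlap, and -1.80 ± 0.52 over both screens (adjusted p = 0.406). In dT 2.60% of the 1386 genes lay wholly below solvent. The dT medians of MT-CO2 and PPDPF were also below solvent with imatinib alone and with trametinib alone, as given below. With only the 142 genes counted in all libraries tested, MT-CO2 and PPDPF were among the genes that passed, and the calls were 3 higher and 4 lower. NUP214, a nuclear pore protein, had counts in 6 of 6 solvent and 6 of 12 YM115 libraries (-7.81 ± 2.16, adjusted p = 0.381).

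Respiratory chain subunits are encoded in part by the mitochondrial genome and in part by the nucleus. The share of counts from mitochondrially encoded genes was lower in all 6 runs, on average by 1.42 percentage points (two-sided exact permutation test within runs, p = 0.00137, the smallest this design allows; adjusted over 12 tests p = 0.0165). In dT it was 6.27% ± 0.919 (SD, n = 3) in solvent and 4.23% ± 0.463 (n = 6) with YM115 (exact permutation p = 0.037, the smallest that 27 arrangements allow; adjusted p = 0.0889). In Bio it was 5.34% ± 1.94 (SD, n = 3) and 4.55% ± 1.47 (n = 6) (exact permutation p = 0.148, adjusted p = 0.198). The dT groups did not overlap and the Bio groups did.

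Of 13 mitochondrially encoded mRNAs, 9 were tested, none passed in edgeR's test, and 2 were lower at an unadjusted p under 0.05 (MT-CO2 and MT-ND1), as were 1.73% of all genes tested. Of the 8 counted in all libraries 6 had a negative and 2 a positive log2 fold change, with a median of -0.29 over both screens, -0.54 in dT and -0.18 in Bio, against 0.12, 0.18 and 0.23 for all 142 such genes. MT-ND1, a core subunit of complex I, had 7408, 5985 and 4822 CPM in dT solvent and 1986 over 3505 to 3938 with YM115, and -0.67 ± 0.29 over both screens (adjusted p = 0.566). MT-CO3 had -0.39 ± 0.26 (adjusted p = 0.762). Mitochondrially encoded genes have near-copies in the nuclear genome, and how multi-mapping reads were counted is not given in the sources used here.

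Of 77 nuclear-encoded subunits of the respiratory chain, 32 were tested, none passed, and 3 were higher and 0 lower at an unadjusted p under 0.05 (NDUFA11, COX5B and COX7A2), where 5.84% and 1.73% of all genes tested were. All 6 members counted in every library had a positive log2 fold change, with a median of 0.67, against 90 of 142 and a median of 0.12 for all such genes. The summed level of the whole list was above the run's solvent in all 12 YM115 libraries. Over the other lists this count ran from 1 (integrated stress response) to 12 (globins). It was 10 for the proteasome, survivin-network and large-subunit ribosomal lists. In dT the sum was 26514 to 27144 CPM in solvent and 31599 to 44587 CPM with YM115. In Bio it was 16838 to 25017 and 27601 to 47088 CPM. The groups did not overlap in either screen. The sum includes members without counts in some libraries. Other list sums also did not overlap in 1 screen. In dT these were the metallothionein, mitochondrial mRNA, splicing, integrated stress response and structural noncoding RNA lists. In Bio they were the globin, erythroid marker, ERK target and MYC lists. COX5B, a subunit of cytochrome c oxidase, had 5822, 7066 and 2898 CPM in dT solvent, within the YM115 range of 2599 to 8783, and 1761, 3126 and 3241 against 4392 to 10633 CPM in Bio, with no overlap there (0.76 ± 0.34 over both screens, adjusted p = 0.594). NDUFS6, an accessory subunit of complex I, and UQCRQ, a subunit of complex III, had 1.32 ± 0.81 and 0.47 ± 0.33.

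**Figure D3:**
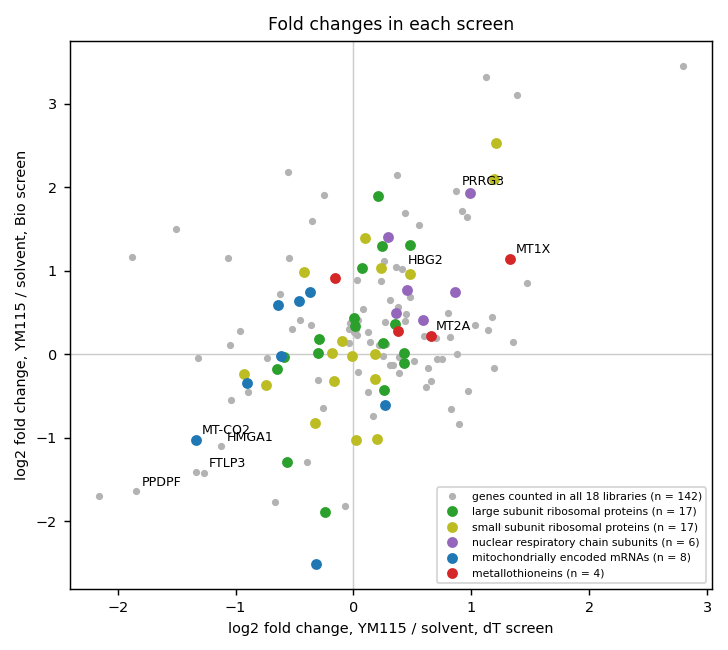
Log2 fold change of YM115 over solvent in dT (x axis) and Bio (y axis) for the 142 genes counted in all 18 libraries, with coloured points for 5 gene groups. The 6 nuclear respiratory chain genes lie at the upper right, MT1X is highest among the 4 metallothioneins in both screens, and HMGA1, MT-CO2, PPDPF and FTLP3 lie at the lower left.

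Ribosomal protein genes lay near the centre. Of 34 large-subunit and 27 small-subunit genes tested, none passed, and 0 were lower at an unadjusted p under 0.05. Among the 17 of each subunit counted in all libraries the median log2 fold changes were 0.12 and -0.05. RPS16 had 0.64 ± 0.26 (adjusted p = 0.523) and RPL34 0.17 ± 0.15. RACK1, a ribosome-bound scaffold, and ENO1, a glycolytic enzyme, had 0.26 ± 0.16 and 0.37 ± 0.27.

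Few genes of the survivin network were deep enough to test. Of 26 survivin-network and apoptosis genes 4 were tested, of 28 chromosomal passenger and mitotic genes 5, and of 25 DNA damage response genes 0. None of the 9 passed or had an unadjusted p under 0.05. BAX, which permeabilises the mitochondrial outer membrane, had 4.47 ± 2.20 (adjusted p = 0.63). CDC20 and UBE2S, which act with the anaphase-promoting complex, had -3.80 ± 2.56 and -2.14 ± 1.58 (adjusted p = 0.762 and 0.808).

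Stress and other groups also held few tested members. Of 26 genes of the integrated stress response, which reprograms translation and amino acid supply through ATF4, 9 were tested, none passed, and 3 had an unadjusted p under 0.05 (PYCR1, PPP1R15A and GARS1), 2 higher and 1 lower, where 5.84% and 1.73% of all genes tested were. Their summed level was below the run's solvent in 11 of 12 YM115 libraries. PYCR1, the last enzyme of proline synthesis, had 238, 710 and 359 counts in dT solvent against 0 to 134 with YM115, and 701, 279 and 162 counts in Bio solvent against 0 to 282. Its log2 fold change was -6.23 ± 2.28 (adjusted p = 0.406). PPP1R15A, a regulatory subunit of the eIF2-alpha phosphatase, had 1 count in all of solvent and 917 with YM115 (6.48 ± 2.90, adjusted p = 0.594). PPP1R15A and BAX, with counts in 1 of 6 solvent libraries each, also met the filter through the YM115 libraries alone.

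Among chaperones, cytoskeletal, proteasome and splicing genes 15, 13, 12 and 17 were tested and none passed, and 0, 2, 1 and 3 had an unadjusted p under 0.05, where 7.58% of all genes tested did. PFN1, an actin monomer-binding protein, was above solvent in 11 of 12 libraries (2.13 ± 0.99, adjusted p = 0.626). HSPE1, a mitochondrial co-chaperonin, had 2.16 ± 1.12, and SET, a histone chaperone, 1.25 ± 0.70. Hypoxia and ERK target genes had no tested member.

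In the single screens 0 of 2054 genes passed in dT (0.00%) and 2 of 850 in Bio (0.235%). In dT 144 genes had an unadjusted p under 0.05 in edgeR's test, and DESeq2's Wald test, which was run as an alternative, called 66. HBG2, MT1X and HMGA1 were not among these 66 (Wald adjusted p = 0.959, 0.617 and 0.579). Their SEs were 1.00, 1.02 and 1.01 there, against 0.07, 0.32 and 0.21 in edgeR. In Bio HBG2 passed together with H1-4, which encodes a linker histone whose mRNAs are mostly made without a poly-A tail. H1-4 had 0, 2 and 0 counts in Bio solvent and 359 to 1605 with YM115, a pooled ratio of 876 (95% exact interval 242.5 to 7238, counting error only). With counts in 1 of 3 solvent libraries it met the filter in Bio through the YM115 libraries, so that only this direction could be tested. In Bio alone HBG2 had an adjusted p of 0.184 without the run block, and of 0.0155, 0.543 and 0.638 without runs 1, 2 and 3. H1-4 had 0.0604, 0.0289 and 0.638 without the same runs. In dT H1-4 had 373, 908 and 150 counts in solvent, or 2047, 5333 and 820.1 CPM, and 1701 over 7059 to 9657 CPM with YM115.

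The 2 genes whose YM115 difference differed between the screens were H1-4 and CYBA (0.144% of 1386). The Bio log2 fold change of H1-4 exceeded that of dT by 8.46 ± 1.22 (adjusted p = 0.00286), and without single runs adjusted p was 0.0543 without Bio run 3 and 0.0598 without dT run 2, and 0.0314 or less without any other run. CYBA, the p22 subunit of the NADPH oxidase, had 30, 232 and 257 counts in dT solvent and 243 to 1118 with YM115. In Bio it had 0 counts in solvent and 41 to 1389 with YM115, at least 291-fold against 3 counts. Its difference between screens was 10.15 ± 1.79 (adjusted p = 0.0275), and adjusted p reached 0.284 without dT run 2, 0.234 without dT run 3, and 0.173 and 0.107 without Bio runs 1 and 3. In both genes the screens differed in their solvent libraries, with nearly no counts in Bio. The fitted sizes of both differences therefore depend on the small number added to zero counts.

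MT-CO1, GPI and CHCHD1 followed without passing. MT-CO1, the catalytic subunit of cytochrome c oxidase, had -0.46 ± 0.13 in dT and 0.63 ± 0.24 in Bio (difference 1.11 ± 0.26, adjusted p = 0.255). GPI and CHCHD1 were at 0 in all 3 Bio solvent libraries, with an adjusted p of 0.544 each.

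Libraries with YM115 listed first and second carried the same drug pair, and 1 of 1386 genes differed between them (0.0722%). CFAP251, a ciliary protein, had 0 counts in all 6 libraries with YM115 listed first, 3 to 9 counts in all 6 with YM115 listed second and 0 to 8 in solvent, and the adjusted p was 0.0439. It passed in no fit that left out a run. MT1X, HBG2 and HMGA1 differed by 0.17, -0.08 and -0.15 (log2, first minus second), with an adjusted p of 0.997 for each.

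**Figure D4:**
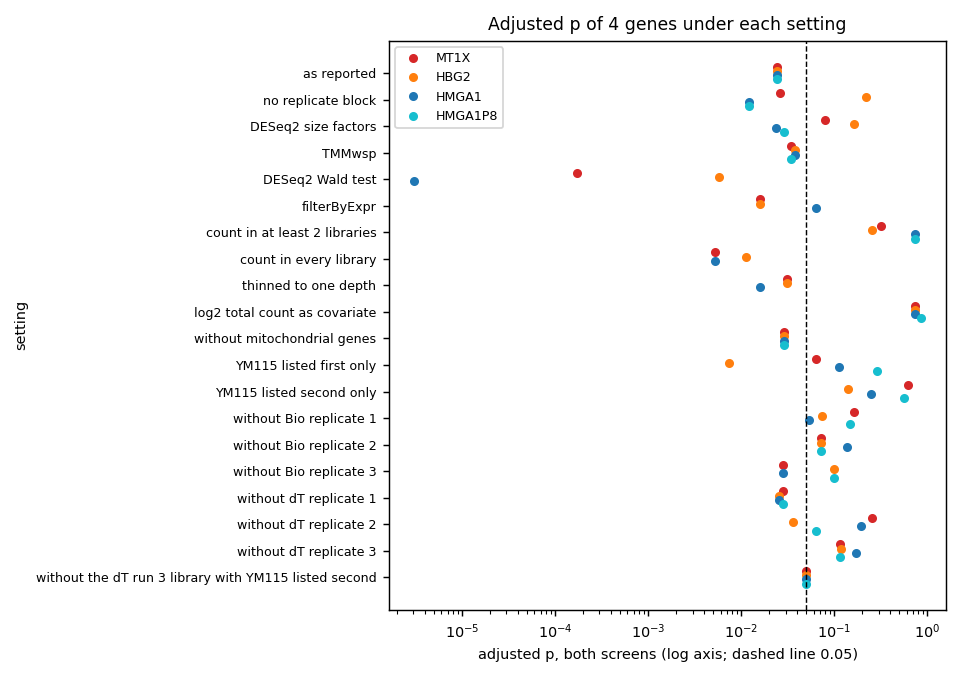
Adjusted p on a log axis for MT1X, HBG2, HMGA1 and HMGA1P8 over both screens, as reported and under each alternative setting, with a dashed line at 0.05. The 4 genes lie at 0.0242 as reported and at 0.73 or above with log2 total counts as a covariate.

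To see how the levels stood against other treatments, YM115 was also set against imatinib alone, an inhibitor of the BCR-ABL kinase (12 libraries), and trametinib alone, a MEK inhibitor (11 libraries), a comparison chosen after the first results were seen. These libraries were closer in depth, with medians of 222142.5, 238261 and 254737 counts. Against imatinib 0 of 1295 genes passed (0.00%), 87 had an unadjusted p under 0.05 and DESeq2 called 66. Against trametinib 1 of 1374 passed (0.0728%), which was FTL, with -1.19 ± 0.16 (adjusted p = 0.000344), and it passed in all 12 alternatives. On a scaling over all conditions, FTL in dT ran from 3547 to 8109 CPM with YM115 and from 7674 to 19627 CPM with trametinib. In Bio the ranges were 3990 to 8852 and 6917 to 11750 CPM. The dT medians were 8191 CPM in solvent, 5171 with YM115 and 11547 with trametinib. In Bio they were 5406, 5796 and 10693 CPM, so that there YM115 lay near solvent and trametinib above both.

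HBG2, MT1X and HMGA1 had the same sign against both drugs as against solvent and did not pass. HBG2 had 0.50 ± 0.17 against imatinib and 0.41 ± 0.09 against trametinib (adjusted p = 0.36 and 0.0749), MT1X 0.59 ± 0.21 and 0.56 ± 0.18 (0.37 and 0.521), and HMGA1 -0.50 ± 0.22 and -0.41 ± 0.16 (0.577 and 0.649). Both comparisons share the 12 YM115 libraries. In dT the median of MT1X was 2484 CPM in solvent, 2882 with imatinib, 2403 with trametinib and 5959 with YM115, whereas in Bio the medians were 6289, 12996, 14879 and 17729 CPM. HMGA1 had a dT median of 14965 CPM in solvent and of 7714, 7001 and 6005 with imatinib, trametinib and YM115. The 3 separate DMSO controls of each screen had medians of 2705 CPM in dT and 2597 CPM in Bio for HMGA1, below all these conditions. MT-CO2 had dT medians of 4920 CPM in solvent and of 1508, 1643 and 2267 with imatinib, trametinib and YM115. Its Bio medians were 4417, 1262, 2317 and 2383 CPM in the same order. For PPDPF they were 7553, 1432, 2636 and 2041 CPM in dT, and 1557, 2137, 1333 and 936 CPM in Bio.

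When YM115 came from both sources (3 libraries a screen), the medians were 6563 and 16554 CPM for MT1X in dT and Bio, 48880 and 46973 CPM for HBG2, and 7355 and 8946 CPM for HMGA1. These values were not tested.

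**Figure D5:**
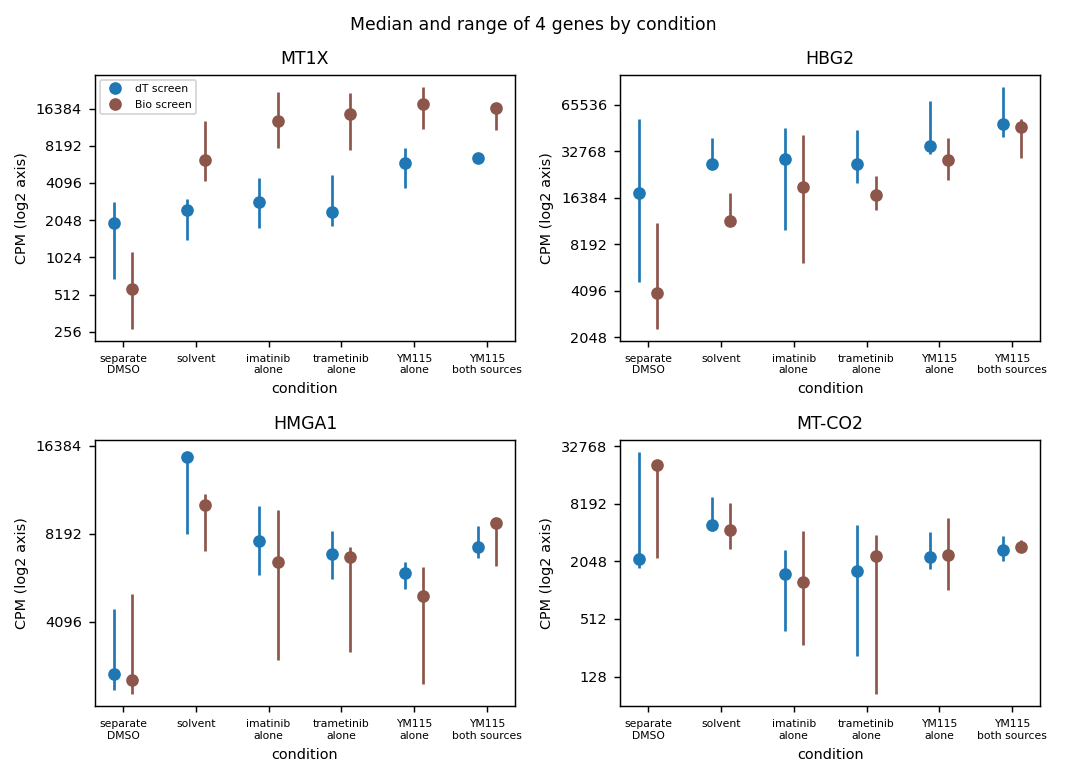
Median (points) and range (lines) of CPM on a log2 axis for MT1X, HBG2, HMGA1 and MT-CO2 in 6 conditions of the dT (blue) and Bio (brown) screens, with 3 to 6 libraries each. HBG2 medians are highest with YM115 alone and from both sources, and HMGA1 medians are highest in DMSO_DMSO and lowest in the separate DMSO controls.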

How the data were processed

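Raw read counts per gene (24965 genes, 102 libraries) were deposited by the authors as whole numbers. STAR 2.4.2a and GRCh38 are named in the submitters' processing notes; the counting annotation, its strand setting and any collapsing of molecular identifiers are not given in the sources used here, so intervals and floors cover counting error only. Gene coordinates are those of GENCODE release 29. No column belonged to another sample and 0 entries named no gene. The table of sample annotations was not used.

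Libraries were grouped by their titles. All 18 had at least 1000 detected genes and 81806 to 480075 counts. Genes counted in 9 or more of the 18 libraries (the same share within a screen) were tested with edgeR 4.0.16 (R 4.3.3; TMM, quasi-likelihood, Benjamini-Hochberg, threshold 0.05) with the run of each screen as a block. Levels are CPM on TMM-scaled totals. Libraries of a run were processed together in the study; the mean correlation of their residuals over 142 genes was 0.104 in dT and 0.081 in Bio (9 pairs each), against -0.05 and -0.04 between runs. Replicate pairs differed by 56.7 to 147 in chi-square per degree of freedom (18 pairs), so none was a repeated deposit.

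Named genes were those that passed, the next by p with one sign in both screens, and listed genes; not every gene that meets this rule is reported here. Members and lists were chosen with earlier results of these data known. Alternatives were other scalings and filters, DESeq2 1.42.0, thinning to the shallowest library, a depth covariate, single listed orders and left-out runs. The comparisons with imatinib and trametinib, and the fit without the dT run 3 library with YM115 listed second, were chosen after seeing the data. Library measures were compared by exact permutation within runs (python 3.11.15, numpy 2.4.6, scipy 1.17.1, pandas 2.3.3). Plots used matplotlib 3.10.9. Only the edgeR model over both screens was tested on simulated data.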

Additional observations from a re-analysis of the deposited data

Results flagged for a closer look

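Among 58 groups of 6 YM115 libraries looked at, 5 had 1 library apart from the rest by Dixon's criterion, where chance gives about 1 in 20. In Bio run 1 the library with YM115 listed first had 260.7 CPM of MT1XP1 and 9078 CPM of RPL34, and the library listed second had 1681 CPM of UQCRQ. In dT run 2 the library listed first had 16.4 CPM of FTLP3 and the library listed second had 820.7 CPM of SET.

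For H1-4 and CYBA the test of the difference between the screens passed in edgeR, with Bio minus dT log2 fold changes of 8.46 and 10.15. The Bio solvent libraries had 2 counts of H1-4 and 0 of CYBA in all, so the sizes of these differences depend on the small number added to zero counts. What sets these libraries apart was not tested.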

How the results depend on the processing

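The minimum of 1000 detected genes removed no library, so that fit without it was identical. Of 1015 values under alternatives for 62 gene results, 0 reversed in sign and 914 stayed on their side of the adjusted p threshold. Another 63 were weaker, no longer passing, and 38 were stronger, passing only in the alternative. Over both screens 4 genes passed as reported, 2 with DESeq2 size factors, 93 in DESeq2's Wald test, 2 with filterByExpr, 7 among genes counted in every library, 0 with the depth covariate, 2 with YM115 listed first only, 0 listed second only and 0 to 4 without single runs. In dT (0 as reported) there were 66 in the Wald test, 4 with filterByExpr, 5 with a count in at least 2 libraries, 14 listed first only, 6 listed second only and 0 to 1 without single runs. In Bio (2) there were 1 with DESeq2 size factors, 47 in the Wald test, 0 among genes counted in every library, 1 after thinning, 0 with the covariate, 4 listed first only, 1 listed second only and 0 to 1 without single runs. Between screens (2) there were 0 among genes counted in every library, 1 with the covariate and 0 to 2 without single runs. Between listed orders (1) there were 0 with filterByExpr, with at least 2 libraries, with every library, after thinning and with the covariate, and 0 to 1 without single runs. Against imatinib (0) there were 2 among genes counted in every library and 66 in the Wald test, and against trametinib (1) 4, 67, 2 after thinning and 1 to 2 without single runs.

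Without the replicate block, 3 genes passed over both screens, HBG2 being lost, and 1 in Bio.

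With medians in place of means, the difference was 0.85 in log2 total counts over both screens (exact permutation p = 0.0576) and 0.86 in Bio (p = 0.111, exact permutation), 722 detected genes in Bio (exact permutation p = 0.111) and -1.75 points of mitochondrial share in dT (exact permutation p = 0.111). Without single runs the difference in detected genes over both screens was 552.5 to 757.6, the latter without dT run 3 (exact permutation p = 0.0329). The causes were not tested. Depth limits what could be called: 1386 of 24965 genes were tested.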
